A study of Mus musculus with 72 samples.

Results

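The comparison is between the left cortex of Thap1+/- mice with a crushed right sciatic nerve and the left cortex of naive Thap1+/- mice, read across all mature miRNAs. THAP1 is a zinc-finger transcription factor, and loss of 1 working copy in people can cause the movement disorder DYT6 dystonia; the mice carry 1 functional allele in every cell and serve as the model. All animals of the series were male. The nerve was crushed for 1 min at 12 weeks of age under isoflurane, the labels give 12 weeks after injury as the time, and naive animals are described only as naive, so a sham operation is not part of the comparison. Left cortex lies on the side opposite to the injury. Members were chosen by genotype, region and treatment, which gave 6 crush and 6 naive libraries, 12 of the 71 libraries analysed. Wild-type cortex (6 crush and 5 naive libraries) and Thap1+/- left striatum and right cerebellum (12 libraries each), under the same treatments and time, are used where a difference from Thap1+/- cortex was tested. The titles call the samples biological replicates, and nothing in the labels ties a library to a litter or cage. The p-values therefore measure only the spread between these samples, which may be partly technical.

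A miRNA is cut from an RNA hairpin whose 5p and 3p arms can each be loaded into Argonaute, and its seed, bases 2 to 8 of the mature strand, pairs with target mRNAs and lowers their output. Members that share a seed tend to share targets, and members of 1 genomic cluster share a primary transcript, while the amounts of the mature arms can still differ. In brain, miRNAs tune dendritic spines, synaptic strength and excitability, and several respond to nerve injury in sensory neurons and Schwann cells.

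The 4 miRNAs that passed the test are shown first, with their seeds in capitals and the bases as RefSeq gives them (GRCm38.p6).
miR-138-2-3p: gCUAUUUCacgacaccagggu
miR-20a-5p: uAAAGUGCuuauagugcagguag
miR-3475-3p: uCUGGAGGcacaugguuugaa
miR-7013-5p: uAUGAAGAggccaguguuguag
No seed is shared among these 4. The mature miR-138-2-3p lies at chr8:94324359-94324379 on the plus strand, in an exon of the lincRNA C78859. The mature miR-20a-5p lies at chr14:115044183-115044205 on the plus strand, in an exon of Mir17hg, the host transcript of the miR-17-92 cluster. The mature miR-3475-3p lies at chrX:140310992-140311012 on the plus strand with no overlapping annotated host, and miR-7013-5p lies at chr3:95004173-95004194 on the plus strand, in an intron of Pi4kb, a phosphatidylinositol kinase gene.

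The miR-138 gene pair is shown because its hairpins give the same 5p arm and different 3p arms. The mature arms are in capitals.
Mir138-2: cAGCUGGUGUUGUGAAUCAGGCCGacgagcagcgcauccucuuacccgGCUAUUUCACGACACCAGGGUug
Mir138-1: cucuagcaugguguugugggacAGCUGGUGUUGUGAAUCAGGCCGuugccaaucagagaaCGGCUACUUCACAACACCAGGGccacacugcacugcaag
Seeds of the arms are in capitals in the mature sequences.
miR-138-5p: aGCUGGUGuugugaaucaggccg
miR-138-1-3p: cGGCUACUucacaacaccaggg

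The miR-20a seed family and the miR-181 family are shown because the results compare their members. The first 4 mature strands share the seed of miR-20a-5p, and the last 4 share a seed among themselves.
miR-17-5p: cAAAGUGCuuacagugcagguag
miR-20b-5p: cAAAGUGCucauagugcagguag
miR-93-5p: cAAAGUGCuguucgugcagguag
miR-106b-5p: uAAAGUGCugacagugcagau
miR-181a-5p: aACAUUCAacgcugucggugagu
miR-181b-5p: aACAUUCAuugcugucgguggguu
miR-181c-5p: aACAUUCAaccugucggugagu
miR-181d-5p: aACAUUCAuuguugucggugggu
Mir181c and Mir181d sit together in an intron of Nanos3, at chr8:84178924-84178945 and chr8:84178759-84178781 on the minus strand.

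The counts of all 12 libraries are whole reads or tags per mature miRNA. Totals ran from 8275347 to 10594439 per library, and 881 of 1927 listed miRNAs had a count in at least 1 of the 12. After a filter on low counts, 549 were tested. Crush and naive libraries did not differ detectably in total counts (exact two-sided permutation p = 0.227), in the number of miRNAs with a count (p = 0.617), or in the share of counts taken by let-7 and miR-98, which was 48.2% ± 3.41 (SD, n = 6) after crush and 48.7% ± 3.80 (SD, n = 6) in naive mice (exact permutation p = 0.820); Benjamini-Hochberg adjustment over 5 such measures gave 0.820 for each. Levels are given in CPM (counts scaled to a common library size by TMM). Abundant members of the neuron-enriched list had means over the 12 libraries of 67058 CPM for miR-128-3p, 33936 for miR-9-5p and 14463 for miR-124-3p. Others on that list were lower, down to 36.3 CPM for miR-129-1-3p/129-2-3p. From the Hox clusters of hindbrain and spinal cord, miR-10a-5p was at 8.39 CPM and miR-10b-5p at 3.84. These levels were not used to tell cortex from other brain regions. A pair of naive libraries stood apart. Naive library 18, by the number that ends its column name, had the highest let-7 share (56.1%), and naive library 16 had the lowest miR-128-3p, the highest miR-143-3p and no count of miR-3099-3p, which naive library 63 also lacked while the other 10 libraries had at least 4040 counts. Calls gained or lost without libraries 16 and 18 are given beside some of the miRNAs they concern, and not all are named. Without library 16 alone, only miR-138-2-3p and miR-383-5p passed, so miR-20a-5p, miR-3475-3p and miR-7013-5p did not.

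Nerve crush was followed by few changes in Thap1+/- cortex. Of 549 miRNAs, 4 passed edgeR's quasi-likelihood test at a Benjamini-Hochberg adjusted p of 0.05 (0.729% of those tested): 2 rose (miR-138-2-3p and miR-20a-5p), while the scarce miR-3475-3p fell, as did miR-7013-5p. At an unadjusted p under 0.05 there were 47 (8.56%), 22 higher and 25 lower, and the median log2 fold change over all 549 was 0.01. Precision followed abundance: the median SE was 0.27 log2 for the 261 miRNAs under 10 CPM and 0.10 for the 61 at 1000 CPM or more, where the median absolute log2 fold change was 0.06. The 4 calls sit near the threshold, each at an adjusted p of 0.0470. All cortex libraries of both genotypes enter this fit; with only the 12 Thap1+/- libraries no miRNA of 509 passed and 38 had an unadjusted p under 0.05, while DESeq2 on all cortex libraries passed 13 of 465. The authors' deposited table, from DESeq2, lists 12 of 457 miRNAs under 0.05 (2.63%), and these include the 4.

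**Figure D1:**
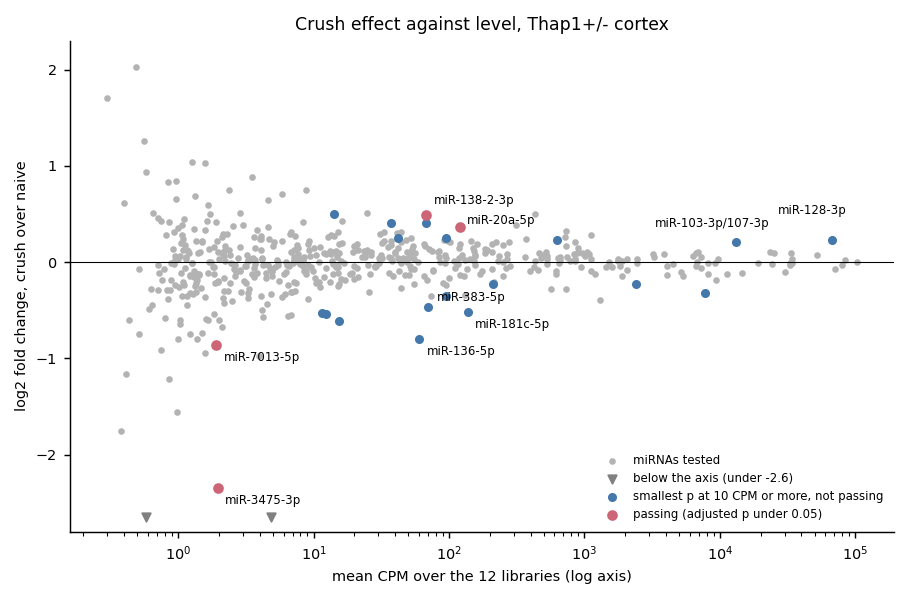
Log2 fold change of crush over naive (vertical axis) against the mean CPM over 12 libraries (log horizontal axis) for the miRNAs tested in Thap1+/- cortex; red marks those passing at adjusted p 0.05, blue those with the smallest p at 10 CPM or more that did not pass, and triangles mark 2 low-count miRNAs whose fitted value is under -2.6. The 4 that passed are 2 miRNAs above 10 CPM that rose and 2 below it that fell, while miRNAs above 1000 CPM lie close to 0.

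The 3p arm miR-138-2-3p rose while the abundant 5p arm from the same hairpin did not pass. miR-138 is a brain-enriched miRNA known for limiting dendritic spine size and for acting on axon regrowth. In naive libraries miR-138-2-3p ran from 37.4 to 72.4 CPM with a median of 57.3, and after crush from 69.7 to 84.9 with a median of 79.4. Only the lowest crush library lay under the highest naive library, which was library 18. The means were 56.6 ± 11.3 and 79.4 ± 5.57 CPM (SD, n = 6 each), a log2 fold change of 0.49 ± 0.11 (SE; adjusted p = 0.0470), higher than the naive mean in 6 of 6 crush libraries. Without naive library 16, the lowest, it was 0.39 (adjusted p = 0.0323), and without naive library 18 it was 0.57 (adjusted p = 0.00267).

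The sequences above show why the arms can be set side by side: miR-138-5p comes from both genes and miR-138-2-3p from Mir138-2 alone. miR-138-5p ran from 16528 to 20890 CPM in naive libraries and from 18032 to 22034 after crush, a log2 difference of -0.01 ± 0.07 (adjusted p = 0.986). The other 3p arm, miR-138-1-3p, ran from 12.4 to 20.9 CPM and from 16.8 to 24.9, a difference of 0.11 ± 0.12 (adjusted p = 0.945). The ranges of both overlap widely. The difference between the arms was itself not tested.

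miR-20a-5p, a member of the proliferation-linked miR-17-92 cluster, rose by less and with a tight naive group. In naive libraries it ran from 102 to 118 CPM with a median of 103, and after crush from 117 to 157 with a median of 132. The lowest crush library lay just under naive library 63, the highest of its group, and the other 5 naive libraries lay under every crush library. The means were 105 ± 6.14 and 135 ± 13.6 CPM (SD, n = 6 each), a log2 fold change of 0.36 ± 0.09 (adjusted p = 0.0470).

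None of the other measured members of its seed family or cluster passed. Of the 4 others with its seed, 2 had a positive and 2 a negative fold change: miR-106b-5p at 0.15 ± 0.09, miR-93-5p at 0.01 ± 0.08, miR-17-5p at -0.09 ± 0.10 and miR-20b-5p at -0.09 ± 0.13 (log2, SE). miR-93-5p was the most abundant of them at a mean of 1522 CPM, against 120 CPM for miR-20a-5p. Of the 6 arms within 10000 bases of miR-20a-5p, 3 were positive and 3 negative, from -0.27 ± 0.34 for miR-19b-3p to 0.28 ± 0.16 for miR-18a-5p, both under 5 CPM. Over the listed members of miR-17-92 and its paralogous clusters, 14 of 19 were tested, 1 passed, and the median log2 fold change was 0.05.

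**Figure D2:**
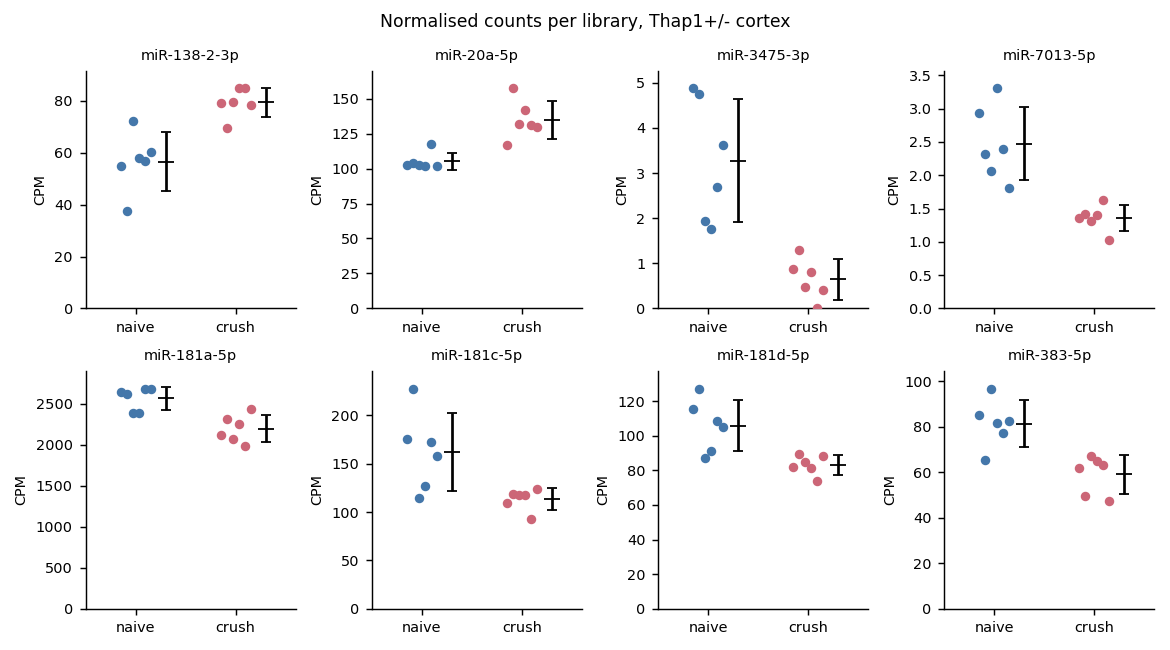
CPM of 8 miRNAs in each of the 12 Thap1+/- cortex libraries (points; blue naive, red crush), with the mean and SD of each group (black, n = 6 each) and every vertical axis starting at 0. Groups are separate for miR-3475-3p and miR-7013-5p and overlap at their edges for the other 6.

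The miRNAs that fell were scarce. miR-3475-3p had 15 to 50 counts per naive library and 0 to 11 per crush library, that is 1.75 to 4.88 CPM with a median of 3.16 and 0 to 1.31 CPM with a median of 0.635. The groups did not overlap. The means were 3.27 ± 1.37 and 0.642 ± 0.450 CPM (SD, n = 6 each), a log2 fold change of -2.35 ± 0.54 (adjusted p = 0.0470). The low-count filter asks for about 1.06 CPM in at least 5 libraries; all 6 naive libraries were past that level and 1 crush library was. Of these groups only the one where it was high met the filter, and a miRNA kept in that way had to differ, so its call and its lack of overlap add no support to the counts they enter.

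miR-7013-5p had 16 to 34 counts per naive library and 10 to 14 per crush library. In naive libraries it ran from 1.81 to 3.30 CPM with a median of 2.36, and after crush from 1.03 to 1.63 with a median of 1.38, with no overlap. The means were 2.47 ± 0.552 and 1.36 ± 0.195 CPM (SD, n = 6 each), a log2 fold change of -0.86 ± 0.20 (adjusted p = 0.0470).

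Groups failed to overlap for 6 of 549 miRNAs (1.09%). Beside miR-3475-3p and miR-7013-5p these were miR-103-3p/miR-107-3p, miR-128-3p and miR-872-3p, all higher after crush, and miR-669d-5p, which went from 0.499 to 1.36 CPM in naive libraries to 1.49 to 2.14 after crush (log2 fold change 1.04 ± 0.39, adjusted p = 0.323). None of these 4 passed in the main edgeR setting, the one that gave the calls above. For miR-669d-5p every crush library lay above the filter's level of about 1.06 CPM, while naive libraries reached below it. Its lack of overlap may therefore follow from the filter and adds no support. Of the 549, 36 had at least 5 libraries past that level in 1 of the 2 groups only.

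miR-103-3p/miR-107-3p is 1 entry for a pair of mature strands that differ near the 3' end. It is shown with miR-128-3p because both were separate between the groups at high levels; capitals mark the seeds.
miR-103-3p: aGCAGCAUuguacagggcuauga
miR-107-3p: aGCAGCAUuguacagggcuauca
miR-128-3p: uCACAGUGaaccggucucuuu
The miR-103 and miR-107 genes lie in introns of Pank3, Pank2 and Pank1, which make coenzyme A, and these miRNAs are known for lowering insulin sensitivity in mouse liver and fat. The entry ran from 10771 to 13022 CPM in naive libraries with a median of 12410, and from 13495 to 15313 after crush with a median of 14073. Every crush library lay above every naive one, and the log2 fold change was 0.21 ± 0.06 (adjusted p = 0.101). The authors' deposited table gives 0.18 and an adjusted p of 0.00545 for it.

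miR-128-3p, a neuronal miRNA known for damping excitability and motor activity in mice, comes from introns of R3hdm1 and Arpp21. It was the fifth most abundant miRNA of the 12 libraries and the only one of the 5 outside the let-7 family. It ran from 51084 to 65188 CPM in naive libraries with a median of 63347, and from 66234 to 77347 after crush with a median of 73062. The ranges met without overlap, with naive library 16 far under its group. The log2 fold change was 0.23 ± 0.07 (adjusted p = 0.159), and 0.18 without that library (adjusted p = 0.407). miR-872-3p ran from 32.8 to 42.0 CPM and from 42.1 to 49.0, a log2 fold change of 0.25 ± 0.09 (adjusted p = 0.258).

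The neuron-enriched list as a whole held 12 tested miRNAs, of which none passed and 1, miR-128-3p, had an unadjusted p under 0.05; 7 were positive and 5 negative, with a median of 0.03 against 0.01 over all tested. Its summed level ran from 146074 to 158536 CPM in naive libraries and from 158696 to 177176 after crush, without overlap but with a narrow gap. Of the 18 lists summed in this way, no other was without overlap. miR-128-3p, itself without overlap, supplies the largest part of the neuron-enriched sum. miR-124-3p was at -0.11 ± 0.10 and miR-9-5p at 0.03 ± 0.10 (log2, SE).

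In the miR-181 family most members had a negative fold change, and none passed in the main edgeR setting. Members of this family are known for setting T cell sensitivity and, in rat heart, for acting on mitochondrial genes. miR-181c-5p ran from 115 to 228 CPM in naive libraries with a median of 165, and from 93.1 to 123 after crush with a median of 118, a log2 fold change of -0.52 ± 0.14 (adjusted p = 0.0684). miR-181d-5p ran from 87.2 to 127 CPM with a median of 106.9, and from 73.7 to 89.2 with a median of 83.3, a log2 fold change of -0.35 ± 0.09 (adjusted p = 0.0570). In both, naive library 18 was the lowest of its group and the only naive library within the crush range.

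The abundant miR-181a-5p ran from 2393 to 2688 CPM in naive libraries with a median of 2630, and from 1992 to 2441 after crush with a median of 2190, a log2 fold change of -0.22 ± 0.07 (adjusted p = 0.135). All 6 crush libraries lay under the naive mean for each of miR-181a-5p, miR-181c-5p and miR-181d-5p. The fourth guide arm, miR-181b-5p, was at -0.12 ± 0.08 (unadjusted p = 0.125), and the passenger arm miR-181c-3p at -0.35 ± 0.16 (unadjusted p = 0.0429, adjusted p = 0.501). Of 10 listed arms 8 were tested, 7 were negative, 4 of them with an unadjusted p under 0.05, against 47 of 549 (25 of them lower) over all tested, and the median was -0.17; their summed level ran from 3468 to 3901 CPM in naive and from 2912 to 3519 in crush libraries. miR-181c-5p and miR-181d-5p come from 1 transcript and share a seed, so they are not independent of each other. Both passed with median-ratio scaling (7 calls), with a stricter count filter (3 calls of 360) and in DESeq2, where miR-181a-5p also passed. The authors' deposited table gives an adjusted p of 0.00304 for miR-181a-5p and miR-181d-5p, and 0.0058 for miR-181c-5p. Without naive library 18 all 3 passed: miR-181c-5p was at -0.60 (adjusted p = 0.0111), miR-181d-5p at -0.40 (adjusted p = 0.0111) and miR-181a-5p at -0.24 (adjusted p = 0.0470). Without naive library 48, miR-181c-5p (-0.58) and miR-181d-5p (-0.39) passed, both at an adjusted p of 0.0374.

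**Figure D3:**
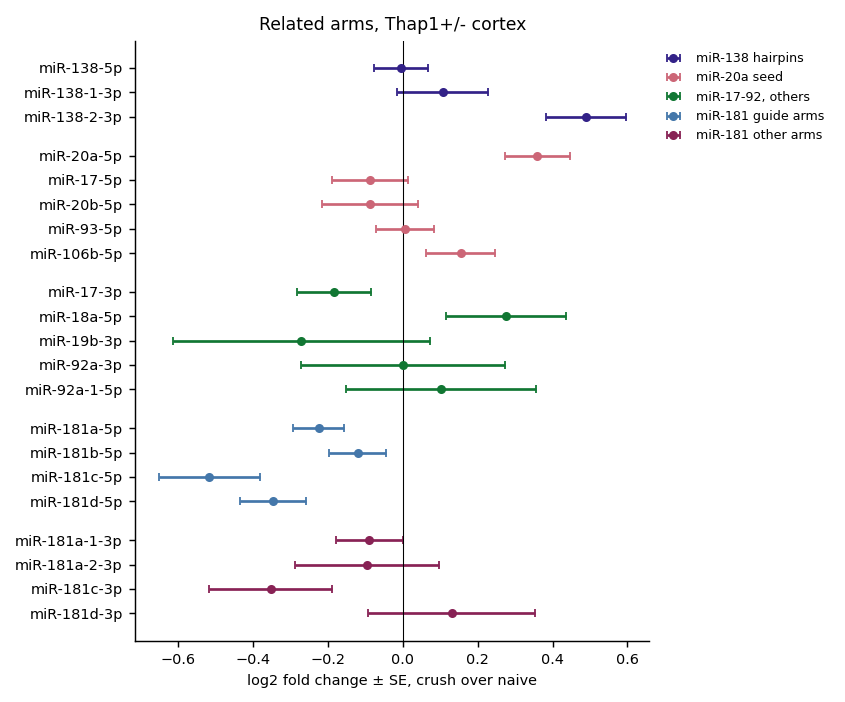
Log2 fold change of crush over naive with its SE (horizontal axis) for arms related to the miRNAs discussed, in Thap1+/- cortex, coloured by family. miR-138-2-3p (0.49) and miR-20a-5p (0.36) lie to the right of their relatives, and the 4 guide arms of miR-181 lie left of 0, from -0.12 to -0.52.

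The remaining miRNAs with the smallest p at a mean of 10 CPM or more did not pass in the main edgeR setting either. Among those lower after crush, miR-383-5p ran from 65.3 to 96.8 CPM in naive libraries with a median of 82.1 and from 47.5 to 67.1 after crush with a median of 62.5, a log2 fold change of -0.46 ± 0.11 (adjusted p = 0.0570). Only the lowest naive library, 16, fell within the crush range. It passed without that library (-0.52, adjusted p = 0.0323) and without naive library 18 (-0.41, adjusted p = 0.0485). With all libraries kept, it passed with median-ratio scaling, without let-7 and miR-98, and in DESeq2. The authors' deposited table gives it an adjusted p of 0.00304. miR-383-5p and miR-181d-5p are the members just outside the threshold, as the 4 calls are just inside it.

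miR-136-5p, made antisense to the imprinted gene Rtl1, miR-326-3p, and miR-33-5p, which sits in an intron of Srebf2 and is known for limiting cholesterol export, had negative fold changes that did not pass. miR-136-5p ran from 27.4 to 103 CPM with a naive median of 86.4 and from 24.8 to 59.6 after crush with a median of 46.3, a log2 fold change of -0.80 ± 0.25 (adjusted p = 0.135). It passed in DESeq2 on all cortex libraries, and the authors' deposited table gives it an adjusted p of 0.0399. Naive library 18 held the lowest naive value for miR-136-5p, miR-326-3p, miR-33-5p and let-7a-1-3p/7c-2-3p, the passenger strand of 2 let-7 genes. Without it miR-136-5p was at -0.97 (adjusted p = 0.0111), miR-326-3p at -0.64 (adjusted p = 0.0192), let-7a-1-3p/7c-2-3p at -0.69 (adjusted p = 0.00267) and miR-33-5p at -0.78 (adjusted p = 0.0192), against -0.54 ± 0.17 (adjusted p = 0.135) for miR-326-3p, -0.53 ± 0.19 (adjusted p = 0.262) for let-7a-1-3p/7c-2-3p and -0.62 ± 0.23 (adjusted p = 0.323) for miR-33-5p with it. The guide let-7a-5p was at 0.02 ± 0.10. The other arm of miR-136, miR-136-3p, was at 0.28 ± 0.22, and its neighbours within 10000 bases were 6 positive and 6 negative, none with an unadjusted p under 0.05.

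miR-143-3p, best known from smooth muscle and pericytes and also on the astrocyte list used here, ran from 7211 to 11404 CPM in naive libraries and from 5641 to 9017 after crush, with a log2 fold change of -0.32 ± 0.12 (adjusted p = 0.262). The ranges overlap, and 5 of 6 crush libraries lay under the naive mean. Its highest value was in naive library 16, and without it the fold change was -0.23. miR-376c-3p, of the imprinted Dlk1-Dio3 region, was at -0.22 ± 0.10 (adjusted p = 0.456).

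Among those higher after crush, miR-499-5p, which shares the Myh7b transcript with a slow myosin gene, ran from 22.5 to 39.8 CPM in naive libraries with a median of 34.2 and from 35.9 to 48.8 after crush with a median of 43.2. The ranges overlap, and the log2 fold change was 0.41 ± 0.12 (adjusted p = 0.103); without naive libraries 16 and 18, the 2 lowest, it was 0.24. miR-134-5p, known for limiting dendritic spine size through Limk1, ran from 71.2 to 100.4 CPM and from 92.5 to 110 after crush, a log2 fold change of 0.25 ± 0.08 (adjusted p = 0.135). Its highest naive value was in library 18, without which it was at 0.30 (adjusted p = 0.0172). On all cortex libraries miR-134-5p and miR-499-5p both passed in DESeq2. The authors' deposited table gives adjusted p-values of 0.0225 and 0.0332 for them. Of the 25 tested arms within 10000 bases of miR-134-5p, 15 were positive and 10 negative, and none passed in the main edgeR setting.

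miR-541-5p was at 0.23 ± 0.08 (adjusted p = 0.262), miR-137-5p at 0.50 ± 0.18 (adjusted p = 0.290) and miR-219a-2-3p, an arm of the miR-219 hairpins known from oligodendrocyte maturation, at 0.41 ± 0.16 (adjusted p = 0.371). miR-541-5p and miR-137-5p were both lowest in naive library 16, and without it they were at 0.15 and 0.34. The abundant arm miR-137-3p was at -0.06 ± 0.13.

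A further miRNA was picked after its values were seen. miR-377-3p had no count in any of the 6 crush libraries, and none in 2 of the 6 naive libraries, with 65 to 191 counts in the other 4 naive libraries. It was among the 13 that passed in DESeq2 as run here, and in edgeR its adjusted p was 0.101. The authors' deposited table, also from DESeq2, gives it an adjusted p of 0.822. No fold is given because both groups hold libraries at 0.

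The title of the study names energy metabolism, and a list of 20 miRNAs tied to mitochondria and energy use was read as a group. Of its 19 tested members none passed in the main edgeR setting. At an unadjusted p under 0.05, miR-103-3p/miR-107-3p and miR-499-5p were higher, and miR-33-5p, miR-143-3p and miR-181c-5p lower. In all, 10 were positive and 9 negative, with a median of 0.01. In DESeq2 on all cortex libraries, miR-103-3p/miR-107-3p, miR-499-5p and miR-181c-5p were among the 13 of 465 that passed. These members are also under 0.05 in the authors' deposited table. Among 18 miRNAs tied to nerve injury, 17 were tested, none passed and the median was 0.06. The 1 with an unadjusted p under 0.05 was miR-221-3p, known to rise in Schwann cells after injury, which ran from 356 to 772 CPM in naive libraries and from 719.9 to 1021 after crush. Its ranges overlap, the log2 fold change was 0.32 ± 0.14 (adjusted p = 0.442), and without naive library 16, the lowest, it was 0.19.

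Markers of other cell types did not pass in any list. Among 9 microglial and inflammatory miRNAs, none had an unadjusted p under 0.05, the median was 0.01, and the fold changes ran from -0.23 to 0.11; the summed level ran from 1408 to 2316 CPM in naive and from 1893 to 2409 in crush libraries. Oligodendrocyte markers were split, with miR-219a-2-3p higher and the scarce miR-32-5p lower (-0.80 ± 0.35, adjusted p = 0.459), and a median of 0.03 over 6. The 6 vessel markers tested of 7 had a median of -0.06, the 3 red cell markers tested of 4 a median of 0.02, and the 6 choroid plexus and ependyma markers tested of 9 a median of -0.24, with no member under 0.05 in any of these. Single libraries set the sign of these medians: the choroid plexus and ependyma median was 0.26 without naive library 48, the red cell median ran from -0.55 without crush library 8 to 0.47 without naive library 63, and the vessel median was 0.03 without naive library 63. The astrocyte list had a median of -0.03 over 6 and miR-143-3p as its 1 member with an unadjusted p under 0.05. In bulk tissue, fewer cells of a type and less RNA per cell cannot be told apart.

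The last lists held no further call in the main edgeR setting. In DESeq2 on all cortex libraries, miR-134-5p of the activity-regulated list and miR-499-5p of the muscle and myosin-gene list passed. The 7 activity-regulated miRNAs had a median of 0.09, which was -0.08 without naive library 16, with miR-132-3p at 0.02 ± 0.15 and miR-132-5p at 0.09 ± 0.15. The 4 muscle and myosin-gene miRNAs tested of 5 had a median of 0.18, with miR-1a-3p at -0.06 ± 0.07. Of the Hox cluster list 2 of 4 were tested, with miR-10a-5p at 0.42 ± 0.18 (adjusted p = 0.459). The 12 miR-30 members had a median of -0.05. The miR-183 cluster had 2 of 3 members tested at a log2 fold change of 0.75 ± 0.50 (miR-182-5p) and 0.89 ± 0.52 (miR-183-5p), with wide overlap between groups. miR-183-5p ran from 0.899 to 8.55 CPM in naive libraries, with library 48 the highest, and from 1.97 to 10.7 after crush, with library 133 the highest. The median of both was 0.82, and it was 1.72 without naive library 48, where miR-183-5p passed, and 0.38 without crush library 133. The 9 let-7 and miR-98 guides ran from -0.07 to 0.09. Of the 18 lists, 11 had a median that changed sign without 1 of the 12 libraries, and 7 kept it: miR-138, miR-181 (-0.21 to -0.16), miR-183, miR-30, muscle and myosin genes, Hox clusters and nerve injury.

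Wild-type mice gave a much larger count, 192 of 549 (35%), 116 higher and 76 lower, and the Thap1+/- crush effect differed from it for 74 of 549 (13.5%), 31 more positive and 43 more negative. In wild type let-7 and miR-98 took 51.5 to 56.6% of counts in the 5 naive libraries and 41.4 to 48.6% in the crush libraries, without overlap, while the Thap1+/- groups overlapped at 46.1 to 56.1% and 44.0 to 51.9%. The part of that composition in the differences was not tested. The count of 74 was 182 without naive library 18 of the Thap1+/- group, 113 without naive library 16, 49 without naive library 63, 45 without crush library 86 and 43 without naive library 76. Wild-type libraries were not left out in turn. A set of 5 miRNAs chosen for large wild-type changes was read in Thap1+/- mice, and none passed there: let-7c-5p was at 0.00 ± 0.10 in Thap1+/- against -0.59 ± 0.11 in wild type, miR-339-5p at -0.05 ± 0.18 against 1.37 ± 0.20, miR-434-3p at -0.14 ± 0.24 against 1.36 ± 0.26, miR-487b-3p at 0.08 ± 0.19 against 1.19 ± 0.20, and miR-221-3p at 0.32 ± 0.14 against 0.74 ± 0.14. The difference between genotypes passed for the first 4 and not for miR-221-3p (adjusted p = 0.142). The wild-type values that chose these 5 also enter that difference, so its result for them is no separate support. With Thap1+/- naive libraries 16 and 18 both left out, miR-434-3p passed in Thap1+/- cortex.

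Some of the Thap1+/- miRNAs had the same sign in wild type, with no library in common. Of the 22 miRNAs described above, the 4 calls and the 10 higher and 10 lower of smallest p at 10 CPM or more with the overlap counted once, 17 had the same sign in wild type, against 49.7% of all 549; of the 47 with an unadjusted p under 0.05, it was 27 (57.4%). Of the 17, 6 passed in wild type, close to the share over all tested, where 98 of 273 with the same sign passed. These were miR-3475-3p at -2.05 ± 0.52 (adjusted p = 0.00521), miR-181a-5p at -0.28 ± 0.07 (adjusted p = 0.00494), miR-181d-5p at -0.37 ± 0.09 (adjusted p = 0.00498), miR-383-5p at -0.43 ± 0.12 (adjusted p = 0.00863), miR-499-5p at 0.69 ± 0.12 (adjusted p = 0.000555) and miR-872-3p at 0.39 ± 0.09 (adjusted p = 0.00290). The genotypes did not differ detectably in these 6, with differences (Thap1+/- minus wild type) from -0.29 to 0.06 log2. miR-138-2-3p was at 0.04 ± 0.11 in wild type, a difference of 0.45 ± 0.16 (adjusted p = 0.0535), and miR-20a-5p at 0.10 ± 0.09, a difference of 0.26 ± 0.12 (adjusted p = 0.150).

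Of the 5 with the opposite sign, 3 passed in wild type; over all tested it was 94 of 276. miR-136-5p was at 0.76 ± 0.26 there, a difference of -1.55 ± 0.36 (adjusted p = 0.0130), miR-326-3p at 0.49 ± 0.18, a difference of -1.02 ± 0.24 (adjusted p = 0.0130), and let-7a-1-3p/7c-2-3p at 0.92 ± 0.20, a difference of -1.45 ± 0.27 (adjusted p = 0.00640). In all 3, naive library 18 held the lowest value of the Thap1+/- naive group.

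**Figure D4:**
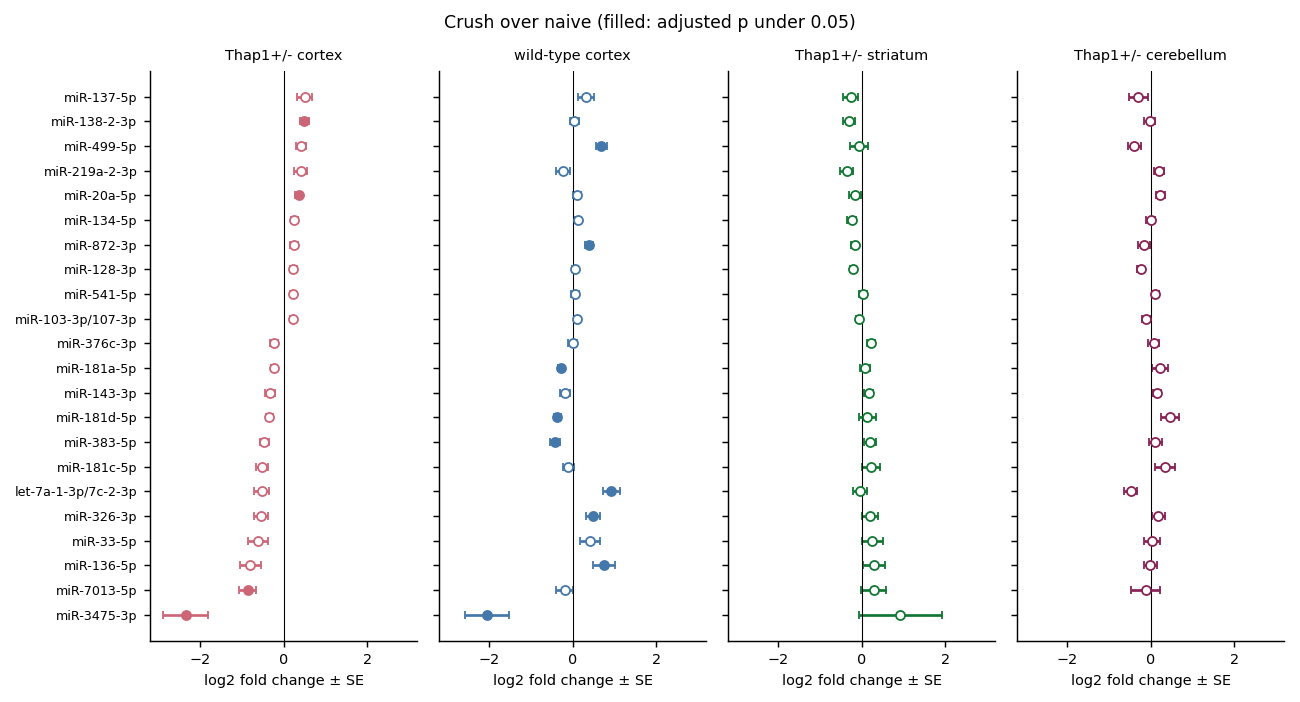
Log2 fold change of crush over naive with its SE (horizontal axis) for the 22 miRNAs in Thap1+/- cortex, wild-type cortex, Thap1+/- striatum and Thap1+/- cerebellum; filled points have an adjusted p under 0.05 in that group. 17 of 22 keep the sign in wild-type cortex, 2 of 22 in Thap1+/- striatum and 6 of 21 in Thap1+/- cerebellum.

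In the same genotype, many of these miRNAs had the opposite sign in striatum and cerebellum. Of the 22, 20 had the opposite sign in striatum, where 42.8% of 533 miRNAs shared a sign with cortex, and 15 of the 21 measured had it in cerebellum, where 52.4% of 502 shared it; library numbers recur across regions, so the same mice may be compared and no pairing was used. None of the 22 passed in striatum, where 0 of 575 miRNAs did and 47 had an unadjusted p under 0.05, nor in cerebellum, where 29 of 552 passed (5.25%), 7 higher and 22 lower. The difference between regions passed for 3 miRNAs of 655 for striatum (0.458%) and 1 for cerebellum (0.153%), each with the more positive effect in cortex. The counts of 3 and 1 ran from 1 to 8 and from 0 to 7 with a cortex library left out, and both were 0 without naive libraries 16 and 18.

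miR-138-2-3p was at -0.31 ± 0.14 in striatum, where its level is higher, from 122 to 219 CPM in naive libraries and from 75.1 to 165 after crush. The cortex-minus-striatum difference was 0.77 ± 0.17 log2 (adjusted p = 0.0123), and was past the threshold in 12 of 13 repeats without cortex libraries, the exception being without both libraries 16 and 18 (0.75, adjusted p = 0.0576). miR-128-3p ran in striatum from 37752 to 42224 CPM in naive libraries and from 29969 to 37026 after crush, and in cerebellum from 14069 to 15521 and from 11142 to 13847. In both regions every crush library lay under every naive one, while in cortex every crush library lay above. miR-128-3p passed in neither region, and the share of all miRNAs without overlap was not counted there. The cortex-minus-striatum difference was 0.40 ± 0.10 (adjusted p = 0.0478) and the cortex-minus-cerebellum difference 0.48 ± 0.10 (adjusted p = 0.00765), and without naive library 16 these were 0.39 (adjusted p = 0.0515) and 0.41 (adjusted p = 0.0653). For miR-221-3p the difference from striatum was 0.72 ± 0.18 (adjusted p = 0.0478), and 0.63 without that library (adjusted p = 0.0515). Over the 13 repeats, the difference from striatum passed in 9 for miR-128-3p and 8 for miR-221-3p, and the difference from cerebellum in 11 for miR-128-3p.

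The number of calls in Thap1+/- cortex depended on single libraries. Leaving out each of the 12 in turn gave 0 to 20 calls: 20 without naive library 18, 5 without naive library 48, 2 each without naive library 16 and crush library 133, and 0 without any 1 of the other 8, where 39 to 50 miRNAs had an unadjusted p under 0.05. Without both 16 and 18 there were 25 calls (4.46% of 560), 7 higher and 18 lower, with all 4 calls among them. Over the settings run, miR-138-2-3p passed in 8 of 20, miR-20a-5p in 5 of 20, miR-3475-3p in 7 of 19 and miR-7013-5p in 5 of 19, and each of the 22 kept its sign in every setting that could measure it. The 22 were chosen by a small p in these same libraries, so their constant sign adds no support.

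**Figure D5:**
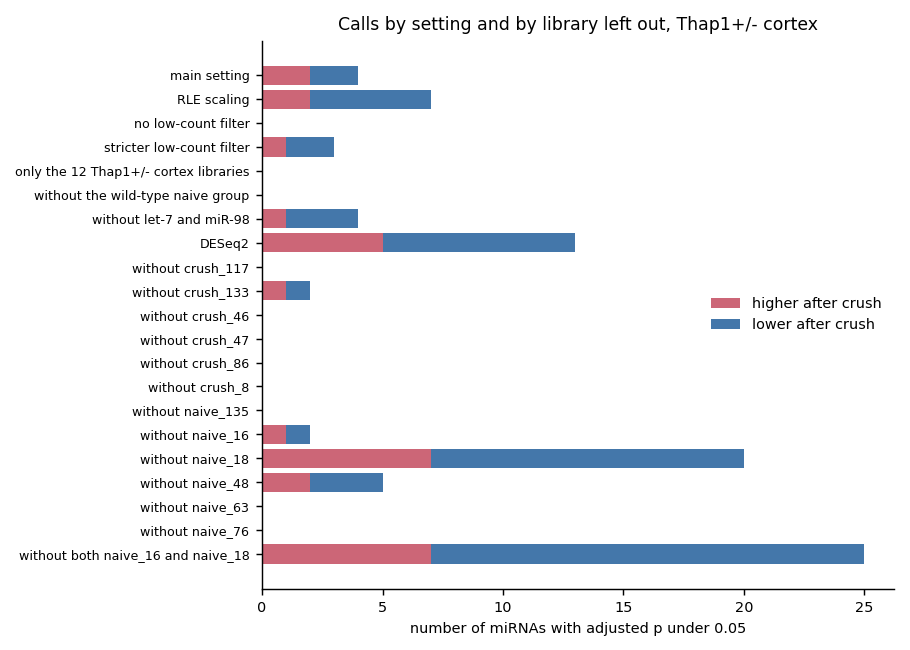
Number of miRNAs with an adjusted p under 0.05 (horizontal axis, from 0) in Thap1+/- cortex for the main setting, the processing alternatives and each library left out, split into higher (red) and lower (blue) after crush. Calls run from 0 to 20 with single libraries left out, and reach 25 without naive libraries 16 and 18.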

How the data were processed

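Small RNA libraries were made from 10 ng of RNA (miRNeasy micro kit) with the QIAseq miRNA UDI kit, per the labels' protocols. The deposited values tested are counts, whole numbers for each mature miRNA. The submitters' processing notes name featureCounts 1.6.4 and R 4.1.0; no source used here gives the aligner, the build or whether molecular identifiers were collapsed. The 4 cortex tables hold the same counts. The authors' log2 fold changes and their p-values, raw and adjusted (DESeq2, per the file headers and table names), were read only to set their calls beside those made here, and 284 further per-sample columns were not used. The labels list 72 samples; 71 had a column, and the remaining sample, wild-type naive cortex, was not analysed here.

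Counts were tested with edgeR 4.0.16 (quasi-likelihood F test, TMM, filterByExpr, Benjamini-Hochberg, R 4.3.3), all 23 cortex libraries in 1 fit of 4 groups, two-sided. The SE of a log2 fold change is its absolute value divided by the root of F. Regions were compared in a joint fit of 71 libraries. Alternatives used DESeq2 1.42.0 and RLE scaling. Between the 2 most alike libraries of a Thap1+/- cortex group, chi-square divided by its degrees of freedom was 26.3, more than counting noise alone gives. Each library was counted as 1 replicate, but this ratio cannot show that libraries come from different mice. The script was tested on simulated data. Named miRNAs are the calls, the 10 higher and 10 lower of smallest p at a mean of at least 10 CPM, relatives of calls, list members with an unadjusted p under 0.05 or of highest level, and 5 from the wild-type effect; members and lists were chosen with earlier results of these data known. Sequences and positions come from RefSeq (GRCm38.p6), which matched 472 of 549 tested features and 18 of the 22 named, and hosts from GENCODE M21.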

Additional observations from a re-analysis of the deposited data

Results flagged for a closer look

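In all, 7 of 70 groups of 6 values held a stray library; chance flags about 1 in 20. Naive library 18 held let-7 and miR-98 at 56.1% of counts (46.1 to 49.6% in the other 5 naive libraries), its 5 most abundant miRNAs at 44.3% (39.0 to 40.8%), let-7c-5p at 138139 CPM (91504 to 100074) and let-7a-1-3p/7c-2-3p at 5.30 CPM (13.6 to 16.6). Naive library 16 held miR-128-3p at 51084 CPM (61935 to 65188) and miR-143-3p at 11404 CPM (7211 to 8755). Naive library 63 held miR-20a-5p at 118 CPM (102 to 104).

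The crush effect differed between regions of Thap1+/- mice, with cortex the more positive. miR-138-2-3p differed from striatum by 0.77 log2, miR-128-3p from striatum by 0.40 and from cerebellum by 0.48, and miR-221-3p from striatum by 0.72.

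The crush effect also differed between genotypes in cortex (Thap1+/- minus wild type). It was more negative for miR-32-5p (-2.07), miR-136-5p (-1.55), miR-434-3p (-1.50), let-7a-1-3p/7c-2-3p (-1.45), miR-339-5p (-1.42), miR-487b-3p (-1.11), miR-33-5p (-1.03) and miR-326-3p (-1.02), and more positive for let-7c-5p (0.60). Of these, let-7c-5p, miR-339-5p, miR-434-3p and miR-487b-3p were chosen for large wild-type changes, which enter the difference. The rest were chosen by a small p in Thap1+/- cortex, whose values enter it too. The wild-type naive libraries have the highest let-7 share of the 4 cortex groups, and its part in these differences was not tested.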

How the results depend on the processing

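Against 4 calls, the crush comparison gave 7 with RLE scaling, 0 without a low-count filter (91 of 938 at an unadjusted p under 0.05), 0 with only the 12 Thap1+/- libraries, 0 without the wild-type naive group (47 of 526 unadjusted), 13 with DESeq2, 0 to 20 with a library left out, and 25 without naive libraries 16 and 18, the last chosen after seeing the data; the cause was not tested. The stricter filter gave 3 and removal of let-7 gave 4. The 22 miRNAs kept their sign in every setting that could measure them. They were chosen by a small p in the same libraries, so a change of sign was unlikely from the start and its absence adds no support. Against 74, the genotype difference gave 48 without a filter, 43 to 182 with a library left out and 207 without libraries 16 and 18; 73 with RLE, 55 without let-7, 102 with the stricter filter and 98 with DESeq2. miR-33-5p passed there in 6 of 18 settings, and miR-136-5p, miR-326-3p and let-7a-1-3p/7c-2-3p in 18 of 18. Only Thap1+/- libraries were left out in these settings, so dependence on single wild-type libraries was not tested. With repeats added after seeing the data, cortex minus striatum gave 1 to 8 calls with a cortex library left out and 0 without 16 and 18, and cortex minus cerebellum 0 to 7 and 0. With a library left out, the crush minus naive difference ran from -0.0336 to 0.00355 in TMM factor, from -1.24 to 0.958 percentage points in let-7 share and from -0.104 to 1.12 in the share of the 5 most abundant miRNAs. It changed sign for the TMM factor without crush library 133 (0.00355) or naive library 135 (0.00345), the let-7 share without crush library 46 (0.338) or 8 (0.323) or naive library 18 (0.958), and the last of these without crush library 86 (-0.104). Within cortex no paired analysis was possible, because the groups compared share no library number and titles could not be matched to columns. Library numbers recur across regions, but the region differences were fitted without pairing, as if all libraries were independent. Low counts limit miR-3475-3p and miR-7013-5p, whose crush libraries held at most 14 counts.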
